A study of Mus musculus with 39 samples.

Results

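Line yfp_6419 is one of the mouse pancreatic tumour lines from which the T cell low clones of the series came, and its clones yfp_6419c1, yfp_6419c4 and yfp_6419c5 are compared here with all other T cell low clones. The members were chosen by their titles: 5 libraries of 3 clones of line yfp_6419, out of 39 libraries in the series, against 13 libraries of the 6 clones yfp_2699c4, yfp_6421c2, yfp_6422c1, yfp_6499c3, yfp_6556c3 and yfp_6694c2. The title of each library ends with a number, called the tumour number here. T cell low is the class the labels give to clones whose tumours hold few T cells, and T cell high is the opposite class, with 14 libraries of 6 clones. Each clone was grown under the skin of untreated C57BL/6 mice, tumour cells were sorted 3 weeks after implantation, and their total RNA was sequenced. All groups share the strain, the site, the time and the absence of treatment. The labels give neither the driver alleles nor the age of the mice, and they do not say that the libraries of one clone came from separate animals. Duct tumour markers were expressed in all clones, with summed levels of 6365 to 8228 CPM (the counts-per-million scale) in the 3 clones of line yfp_6419 and 4525 to 9351 CPM in the other clones.

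Pancreatic ductal carcinoma cells keep parts of the duct and gut epithelial programme and can also switch on genes of fetal tissues or of mesenchyme, the loose connective tissue of the embryo. Clones of one parent tumour can share rearranged chromosomes and gene silencing, while each clone may have lost or gained features of its own. The data compared here are of RNA only, so neither was measured. The comparison asks which genes are common to the clones of line yfp_6419 and differ from the other T cell low clones, since 3 of the 9 T cell low clones come from it.

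The libraries were of 2 kinds, which decides what can be compared. In 2 of the 5 libraries of line yfp_6419 (tumour 1 of yfp_6419c1 and of yfp_6419c5), the summed level of the heart muscle genes Myh6, Myh7, Myl2 and Mb was 4262 and 4893 CPM, while in the other 3 it was near 0. Libraries with a sum under 10 CPM are called heart-free below. In heart-free T cell low libraries the sum reached at most 0.203 CPM, and in heart-bearing ones it was 151.9 to 4893 CPM. The heart-free libraries were 3 of line yfp_6419, one per clone, and 6 of the 5 clones yfp_2699c4, yfp_6421c2, yfp_6499c3, yfp_6556c3 and yfp_6694c2, since the only library of yfp_6422c1 was heart-bearing. Totals ran from 19191874 to 38989285 counts in line yfp_6419 and from 7638130 to 103794674 counts in the other T cell low libraries. Each heart-free library of line yfp_6419 resembled another heart-free library of the line most (Spearman correlation across genes of 0.964 to 0.984, against 0.935 to 0.955 with heart-free libraries of other low clones). Among T cell low libraries, both heart-bearing libraries of the line were most like tumour 2 of clone yfp_2699c4, also heart-bearing, at 0.992 and 0.993. By a chi-square test of the counts, they differed from each other by 16.1 times the sampling noise, and from the heart-free libraries of the line by 255 to 331 times. Pairs of heart-free libraries of the line differed by 75.3 to 178 times.

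The heart-bearing libraries differed in part from the heart-free libraries with the same clone name. In yfp_6419c5, Rhox5, an X-linked homeobox gene of testis and placenta, stood at 389.8 CPM in the heart-free library and at 0.104 CPM in the heart-bearing one. Hoxa10, a homeobox gene of posterior body patterning, had 35.6 and 0.417 CPM in the same libraries. In yfp_6419c1 both genes were low in either library, with Hoxa10 at 0.337 CPM in the heart-free and 0.321 CPM in the heart-bearing one. Olfm4, a glycoprotein of gut crypt cells, was kept in yfp_6419c1, at 44.1 and 36.9 CPM, against at most 1.70 CPM in the other heart-bearing T cell low libraries. The same held for Gpr128, an adhesion receptor of gut epithelium, at 17.991 and 10.8 CPM against at most 0.655 CPM. In yfp_6419c5 the heart-free and heart-bearing libraries had 13.2 and 2.71 CPM of Olfm4 and 5.88 and 0.208 CPM of Gpr128. The Y-linked gene Ddx3y had 0 counts in all 3 heart-free libraries of the line, and 40.2 and 40.7 CPM in its heart-bearing libraries. That pattern was shared with the other T cell low libraries, which had 4.55 to 42.3 CPM where heart-bearing and at most 2.15 CPM where heart-free. Eif2s3y, Kdm5d and Uty also had 0 counts in the heart-free libraries of the line, which allows a level of up to 0.0271 CPM over the 3 libraries together. How these differences came about was not tested. The heart-free comparison is given first, and values over all libraries follow for the called genes that are described.

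Against the 5 other T cell low clones, most genes called in the heart-free libraries of line yfp_6419 were higher in the line. With the counts of each clone summed and edgeR's quasi-likelihood test at an adjusted p under 0.05, 51 of 15897 genes were higher in line yfp_6419 (0.321%) and 3 were lower (0.0189%). All 54 had the 3 clones of line yfp_6419 on one side of all 5 other clones. That pattern by itself was common: 971 genes were above every other clone (6.11%) and 863 were below (5.43%). At an unadjusted p under 0.05, 1183 genes were higher (7.44%) and 1192 lower (7.5%). The count of calls rested on single clones. Repeats of the test gave 0 higher and 0 lower calls without yfp_2699c4, 0 and 0 without yfp_6419c5, 2 and 0 without yfp_6556c3, 10 and 0 without yfp_6419c4, 27 and 1 without yfp_6694c2, 81 and 22 without yfp_6421c2 and 91 and 2 without yfp_6419c1. The 3 clones come from one line and were treated as separate replicates, so p-values measure the spread between clones, and what belongs to the line cannot be told apart from what its clones share for other reasons.

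**Figure D1:**
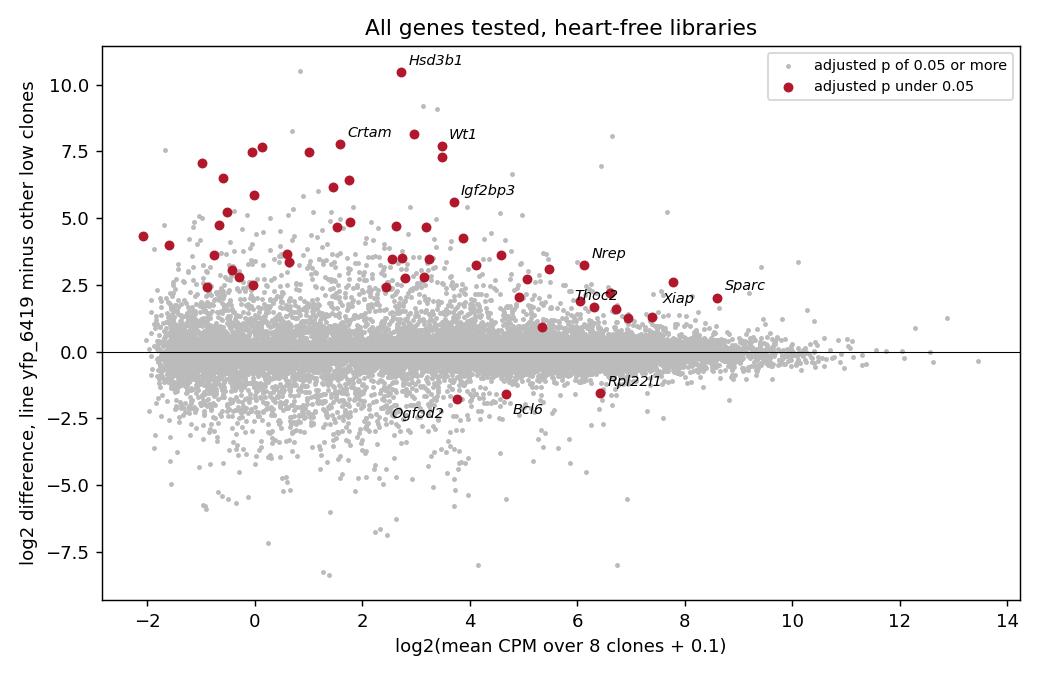
Log2 difference between line yfp_6419 and the 5 other T cell low clones (vertical axis) against mean level (horizontal axis, log2 of CPM plus 0.1) for the 15897 genes tested in heart-free libraries. Red points are the genes with an adjusted p under 0.05, of which 51 lie above 0 and 3 below.

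The promoters of Hsd3b1 and Igf2bp3, which were called, and of Hoxa10 are shown. Hoxa10 missed the threshold and within the line was on in yfp_6419c4 and yfp_6419c5 only. All 3 genes were at most near 1 CPM in the other T cell low clones with heart-free libraries. Their promoters were chosen because they differ, even so, in their content of CG dinucleotides, the bases at which mammalian DNA is methylated. The windows are the 250 bases before the RefSeq start (GRCm38.p6), 5′ to 3′ on the gene's strand, with CG in capitals. Hsd3b1 (chr3:98859795-98860044, minus strand) held 1 CG, Hoxa10 (chr6:52240855-52241104, minus strand) held 7 and Igf2bp3 (chr6:49214955-49215204, minus strand) held 21. Over 20587 promoters of the same length, the median was 8, 92.6% held at least 1, 54.5% held at least 7 and 19.3% held at least 21. The median over the 34 called genes with a window was 6.5, near that of all genes.
Hsd3b1: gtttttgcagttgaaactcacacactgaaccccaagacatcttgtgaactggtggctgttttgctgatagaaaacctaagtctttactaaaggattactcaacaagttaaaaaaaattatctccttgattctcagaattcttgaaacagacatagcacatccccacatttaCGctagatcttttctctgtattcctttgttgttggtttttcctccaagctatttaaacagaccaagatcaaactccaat
Hoxa10: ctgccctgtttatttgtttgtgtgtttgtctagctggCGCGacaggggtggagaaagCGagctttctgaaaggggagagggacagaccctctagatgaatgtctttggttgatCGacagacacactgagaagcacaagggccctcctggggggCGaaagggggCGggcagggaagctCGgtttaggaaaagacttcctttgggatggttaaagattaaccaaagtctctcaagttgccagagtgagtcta
Igf2bp3: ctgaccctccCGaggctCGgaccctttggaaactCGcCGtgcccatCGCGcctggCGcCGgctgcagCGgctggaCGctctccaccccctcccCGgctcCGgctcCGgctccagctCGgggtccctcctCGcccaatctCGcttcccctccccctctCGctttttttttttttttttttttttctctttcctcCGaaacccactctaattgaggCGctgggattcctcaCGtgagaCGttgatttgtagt

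Igf2bp3, on chromosome 6 (chr6:49085223-49214957 in GENCODE M21), had the smallest p and encodes an RNA-binding protein of embryonic tissues that binds Igf2 messenger RNA. Its levels were 16.4, 43.7 and 40.2 CPM in yfp_6419c1, yfp_6419c4 and yfp_6419c5, and 0.788, 1.03, 0.691, 0.464 and 0.422 CPM in yfp_2699c4, yfp_6421c2, yfp_6499c3, yfp_6556c3 and yfp_6694c2. All 3 clones were above all others, by 5.61 ± 0.44 on the log2 scale (adjusted p 0.00994). Over all libraries the difference was 4.47 ± 0.73 and missed the threshold (adjusted p 0.0857). T cell high clones ran from 0.280 to 34.6 CPM, so that some of them reached the levels of line yfp_6419.

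Hsd3b1 (chr3:98852194-98859794) encodes a 3β-hydroxysteroid dehydrogenase, an enzyme of steroid hormone synthesis. It stood at 43.5, 2.79 and 6.02 CPM in the 3 clones of line yfp_6419, in the order above, and at 0.0141, 0, 0, 0 and 0.0302 CPM in the other clones. Among these clones only those of the line had more than traces of the transcript, and they differed widely, with yfp_6419c1 highest. In counts this was 1909 in line yfp_6419 against 2 in the 6 other libraries, a depth-corrected ratio of 1827 with a counting interval of 505 to 15100 (adjusted p 0.0223). The closely related Hsd3b genes lie beside it, and reads may be split between them. Over all libraries Hsd3b1 passed as well (log2 10.77 ± 0.98, adjusted p 0.0155). Its heart-bearing libraries had 2.54 CPM in yfp_6419c1 and 0.104 CPM in yfp_6419c5, and no other T cell low heart-bearing library had a count. T cell high clones had at most 0.0700 CPM.

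Among membrane proteins and transporters, Tm4sf5, a 4-span membrane protein of gut and liver epithelium, had 45.6, 17.4 and 44.0 CPM in the line and 2.31, 2.76, 1.33, 1.92 and 0.995 CPM in the others. Its lowest clone, yfp_6419c4, was still above yfp_6421c2, the highest of the rest (log2 4.25 ± 0.43, adjusted p 0.0218). In heart-bearing libraries alone the difference was -0.53 ± 1.66, and there yfp_6422c1 stood apart at 89.7 CPM. Abca8b, a lipid-transporting ATP-binding cassette protein, had 13.1, 16.9 and 15.6 against 0.366, 1.09, 0.370, 0.278 and 0.814 CPM. Its clones were close together and separate from the others (log2 4.71 ± 0.50, adjusted p 0.0218). For Slc1a2, a glutamate transporter, the values were 26.9, 15.8 and 22.1 against 3.01, 2.29, 1.01, 2.47 and 0.995 CPM. All 3 clones were above these 5 (log2 3.46 ± 0.43, adjusted p 0.0236), while over all libraries yfp_6422c1 had 15.1 CPM, and T cell high clones reached 13.9 CPM. Gpr116, an adhesion receptor coupled to G proteins, had 38.1, 88.6 and 41.7 against 5.78, 3.14, 2.54, 5.90 and 5.52 CPM. Here yfp_6419c4 was highest (log2 3.62 ± 0.39, adjusted p 0.0218), and T cell high clones ran from 3.26 to 63.0 CPM. Over all libraries none of the 4 passed, and the differences were smaller. They were 0.66 ± 1.34 for Tm4sf5 (adjusted p 0.952), 2.42 ± 0.56 for Abca8b (adjusted p 0.243), 1.88 ± 0.64 for Slc1a2 (adjusted p 0.559) and 1.48 ± 0.47 for Gpr116 (adjusted p 0.513). In Tm4sf5 the groups then overlapped.

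Scaffolds and secreted proteins formed another share of the called genes. Nrep, a small protein first described in regenerating nerve, was at 127, 201 and 146 CPM in the line and 26.5, 17.8, 11.3, 8.81 and 18.6 CPM in the others. The groups did not overlap, with yfp_6419c4 highest and yfp_2699c4 the nearest of the rest (log2 3.25 ± 0.35, adjusted p 0.0218). Akap12, a scaffold that anchors protein kinase A, had 19.8, 16.7 and 9.68 against 1.17, 1.64, 1.11, 2.10 and 0.754 CPM (log2 3.50 ± 0.40, adjusted p 0.0223). Tnn, a tenascin of the extracellular matrix, had 8.94, 19.1 and 12.2 against 1.24, 1.4972, 1.01, 0.587 and 1.78 CPM (log2 3.45 ± 0.42, adjusted p 0.0236). Both genes were low in these 5 clones and varied by clone within the line. Over all libraries Akap12 was not low elsewhere, with 2.65 to 19.3 CPM in the 6 other clones against 17.0 to 30.3 CPM in the line, and T cell high clones reached 19.7 CPM. Dkk3, a secreted member of the Dickkopf family, had 7.64, 14.8 and 21.2 against 2.10, 2.17, 2.32, 2.01 and 2.26 CPM. The 5 other clones lay in a narrow band below all 3 (log2 2.74 ± 0.34, adjusted p 0.0236). Selm, a selenoprotein of the endoplasmic reticulum, had 63.1, 53.9 and 54.4 against 9.78, 17.5, 15.9, 17.4 and 9.26 CPM (log2 2.03 ± 0.25, adjusted p 0.0236). Its levels were nearly equal in the 3 clones. Over all libraries none of these genes passed. The differences were 2.31 ± 0.36 for Nrep (adjusted p 0.0724), 1.04 ± 0.51 for Akap12 (adjusted p 0.649), 2.68 ± 0.42 for Tnn (adjusted p 0.0724), 0.98 ± 0.40 for Dkk3 (adjusted p 0.62538) and 1.52 ± 0.21 for Selm (adjusted p 0.0530).

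**Figure D2:**
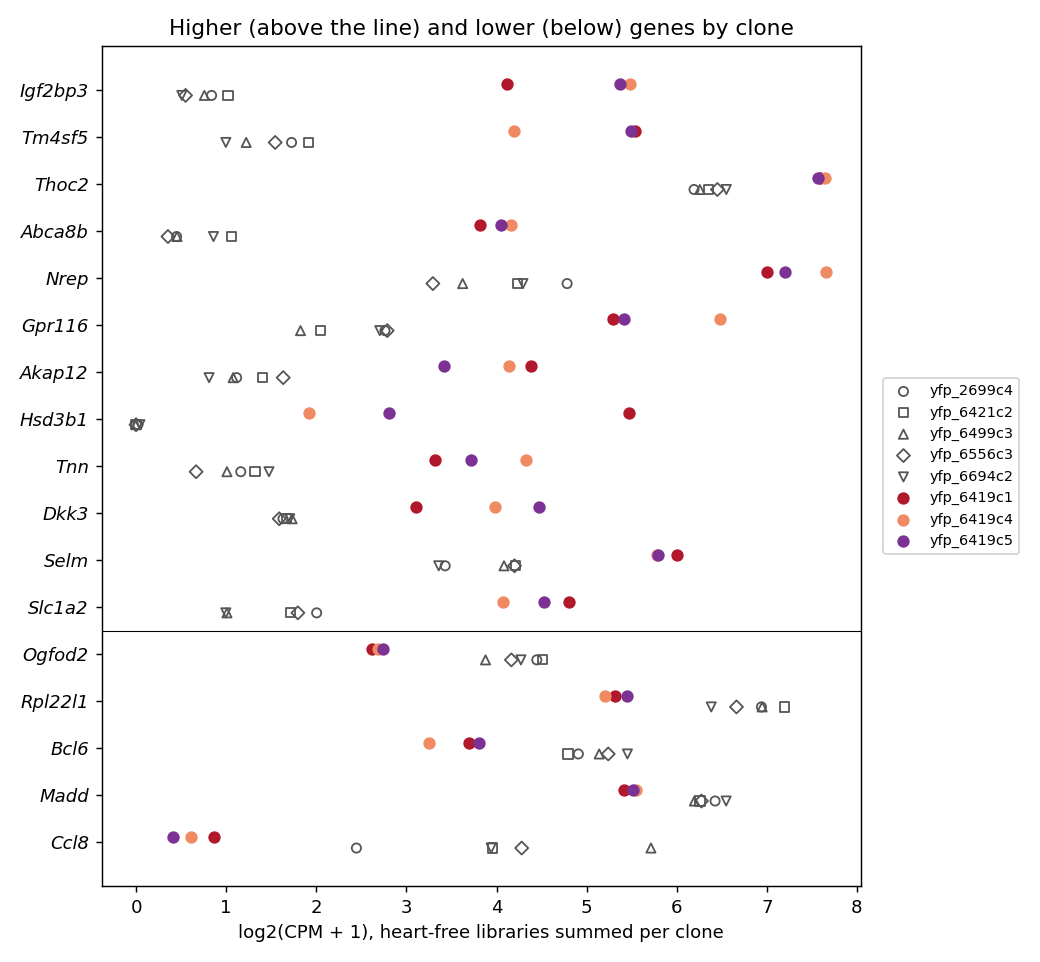
Levels in heart-free libraries summed per clone, as log2 of CPM plus 1 (horizontal axis), for 12 genes higher in line yfp_6419 (above the line), 3 lower and 2 that missed the threshold, Madd and Ccl8 (below). Filled points are clones yfp_6419c1, yfp_6419c4 and yfp_6419c5, open points are the 5 other T cell low clones, and in each gene all filled points lie on one side of all open points.

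The genes called lower in line yfp_6419 had log2 differences of -1.55 to -1.76, while those called higher ran from 0.91 (Pbdc1) to 10.5 (Hsd3b1). Ogfod2 (chr5:124112297-124115483), a protein with an iron-dependent oxygenase domain, had 5.13, 5.41 and 5.70 CPM in the line and 20.8, 21.8, 13.7, 16.9 and 18.3 CPM in the others. The 3 clones were nearly equal and below all 5 (log2 -1.76 ± 0.23, adjusted p 0.0254). It was lower than in T cell high clones too, whose levels ran from 18.3 to 25.1 CPM (log2 -1.97 ± 0.17, adjusted p 0.00518). The heart-bearing libraries of the line had 22.7 and 25.2 CPM, within or just above the range of the other heart-bearing low libraries, and the difference there was 0.24 ± 0.27. Rpl22l1, a paralogue of a ribosomal protein, had 38.8, 35.8 and 42.5 against 122, 146, 122, 100.3 and 82.5 CPM (log2 -1.55 ± 0.21, adjusted p 0.0285). Bcl6, a transcriptional repressor best known in B cells, had 11.998, 8.50 and 13.0 against 29.0, 26.7, 34.2, 36.8 and 42.8 CPM (log2 -1.60 ± 0.23, adjusted p 0.0344). For both, every clone of the line was below every other clone. Over all libraries the differences were -0.92 ± 0.30 for Ogfod2 (adjusted p 0.525), -1.19 ± 0.18 for Rpl22l1 (adjusted p 0.0702) and -1.16 ± 0.27 for Bcl6 (adjusted p 0.239). Fewer than 5 genes passed in this direction, so the next by p are named as having failed. Madd, an exchange factor for Rab proteins, had a log2 difference of -0.87 ± 0.14 and an adjusted p of 0.0504. Ccl8, a chemokine that attracts monocytes, had 0.818, 0.528 and 0.325 against 4.45, 14.5, 51.5, 18.4 and 14.4 CPM. Its log2 difference was -5.20 ± 0.88, with an adjusted p of 0.0631. Markers of leukocytes and macrophages had these levels in the same libraries. The 9 pan-leukocyte genes summed to 36.3 to 59.6 CPM in the line and 58.4 to 386 CPM in the others, with 6 of 9 below every other clone, beside 5.43% of all genes, 0 of 9 positive and a median difference of -1.88. The 10 macrophage genes summed to 472 to 605 against 611 to 3681 CPM, with 4 of 10 below every other clone, 8 of 10 lower at an unadjusted p under 0.05, beside 7.5% of all genes, and a median of -2.23. None of these markers passed the test or was at 0 in the line, and their part in the values of Ccl8 and Bcl6 was not tested.

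On chromosome X, a group of neighbouring genes was higher in all 3 clones by about the same amount. Thoc2 (chrX:41794991-41920674), a subunit of the THO complex that couples transcription to RNA export, had 192, 198 and 188 CPM in the line and 72.1, 80.6, 75.4, 86.5 and 92.7 CPM in the other clones. Next to it, Xiap (chrX:42059679-42109656), an inhibitor of caspases, had 279, 273 and 242 against 93.9, 115, 87.3, 108 and 135 CPM. Stag2, the cohesin subunit whose start is 0.09 Mb beyond that of Xiap, had 323, 315 and 301 against 125, 110.2, 80.3, 132 and 168 CPM. In each of the 3 genes the clones of the line were close to each other and above all others. The log2 differences were 1.24 ± 0.13 for Thoc2 (adjusted p 0.0218), 1.29 ± 0.17 for Xiap (adjusted p 0.0254) and 1.35 ± 0.22 for Stag2, which missed the threshold (adjusted p 0.0509). Over all libraries they were 1.04 ± 0.15 (adjusted p 0.0530), 1.10 ± 0.16 (adjusted p 0.0530) and 1.11 ± 0.17 (adjusted p 0.0702). Against T cell high clones, Stag2 (1.34 ± 0.12, adjusted p 0.00518) and Xiap (1.34 ± 0.14, adjusted p 0.0125) passed, and Thoc2 did not (0.91 ± 0.20, adjusted p 0.110). Stag2 and the genes in the next paragraph were chosen after their values were seen.

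The chromosome as a whole was not higher in this way. Its 512 tested genes had a median difference of 0.48 in yfp_6419c1, -0.09 in yfp_6419c4 and -0.19 in yfp_6419c5, while Thoc2, Xiap and Stag2 differed by 1.18 to 1.43 in each of the 3 clones. Cul4b, -3.53 Mb from the start of Xiap, differed by 0.23, -0.10 and -0.42 in yfp_6419c1, yfp_6419c4 and yfp_6419c5. For Lamp2, at -3.66 Mb, the values were 1.24, 0.25 and 0.05. These neighbours were near or above 0 in yfp_6419c1 and near or below 0 in one or both of the other clones. On the far side, Tenm1 was higher by 3.06, 1.96 and 2.31, although its level in one or more other clones reached that of the line. Smarca1, a chromatin remodelling enzyme at 5.75 Mb, was higher by 2.45, 2.69 and 2.99, and Utp14a, a factor of small ribosomal subunit assembly at 6.20 Mb, by 0.90, 0.96 and 0.99. Neither passed the test (adjusted p 0.191 and 0.0698), though in both the 3 clones were above all others. In heart-bearing libraries Xiap stood at 155 CPM in yfp_6419c1, above the other heart-bearing low libraries (73.5 to 132 CPM), and at 114 CPM in yfp_6419c5, within them. The RNA of Xist, which coats the silenced X chromosome in female cells, was 2032, 2448 and 1842 CPM in the line and 14.8, 1409.5, 575, 21.9 and 1603 CPM in the others; the 3 clones were above all others, without passing the test (adjusted p 0.621).

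**Figure D3:**
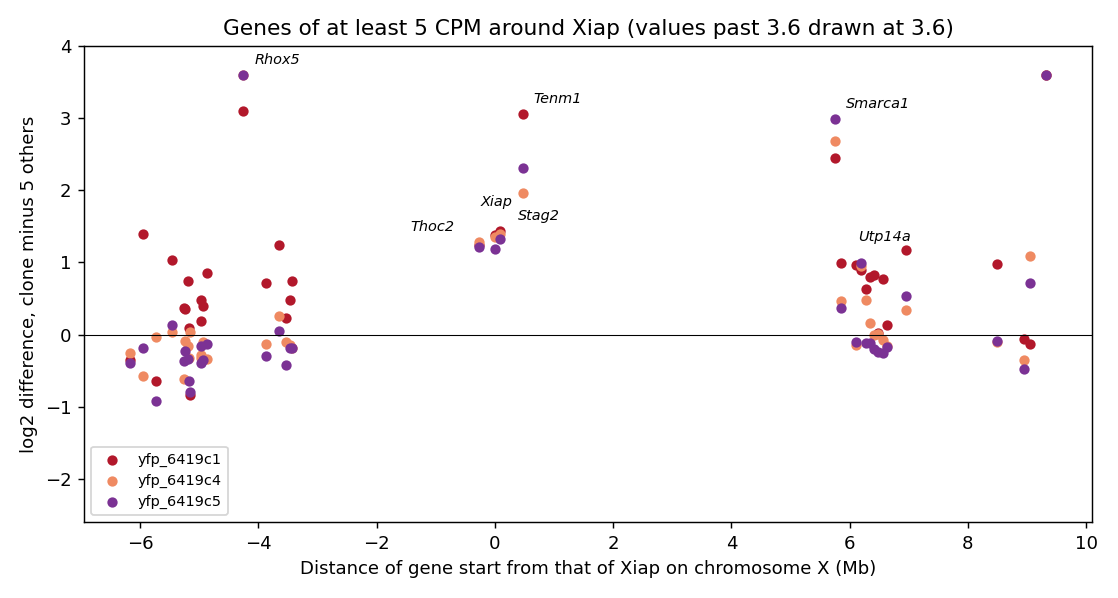
Log2 difference of each clone of line yfp_6419 from the mean of the 5 other clones (vertical axis) for genes whose mean reached 5 CPM, by the distance of the gene's start from that of Xiap in Mb (horizontal axis). At Thoc2, Xiap and Stag2 the 3 clones coincide at 1.18 to 1.43, while at most neighbours yfp_6419c1 lies above yfp_6419c4 and yfp_6419c5, which lie near 0.

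Chromosomes differed in their median difference. On chromosome 12, the median difference of 537 tested genes was -0.61, with -0.52, -0.52 and -0.51 in yfp_6419c1, yfp_6419c4 and yfp_6419c5, and 103 genes (19.2%) were below every other clone, beside 5.43% of all genes. None of these genes passed the test singly. Another clone had a low median too: clone yfp_6421c2 stood at -0.70 against the other 4 clones, while yfp_2699c4 was at 0.36 and yfp_6499c3 at 0.37. Of the 303 windows of 50 neighbouring tested genes in the genome, 293 had a median within 0.5 of 0, and 7 of the 10 lowest were on chromosome 12. The lowest window there (chr12:99884517-108203359, from Tdp1 to Ccnk) had a median of -0.71, and 45 of its 50 genes were lower. Max, the dimer partner of Myc, and Odc1, the first enzyme of polyamine synthesis, are on this chromosome and were chosen after their values were seen. Max had 44.2, 42.5 and 36.4 CPM in the line against 55.5 to 92.2 CPM in the others, and Odc1 209, 184 and 199 against 243 to 565 CPM. Both had the line below all other clones without passing the test (adjusted p 0.172 and 0.189). Chromosome 18 had a median of -0.22 and 16% of genes below every other clone. Chromosome 13 had a median of -0.39 and 11.3% below. There yfp_6419c1 stood at -0.19, while yfp_6421c2 and yfp_6499c3 stood at -0.35 and -0.33 against the other 4 clones. Chromosome 7 had a median of 0.22 and 9.89% of genes above every other clone. Shares above were slightly larger on chromosomes 4 (10.3%, with 9.47% below), 8 (10.2%) and 10 (10%), beside 6.11% of all genes. The overall median was -0.03.

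**Figure D4:**
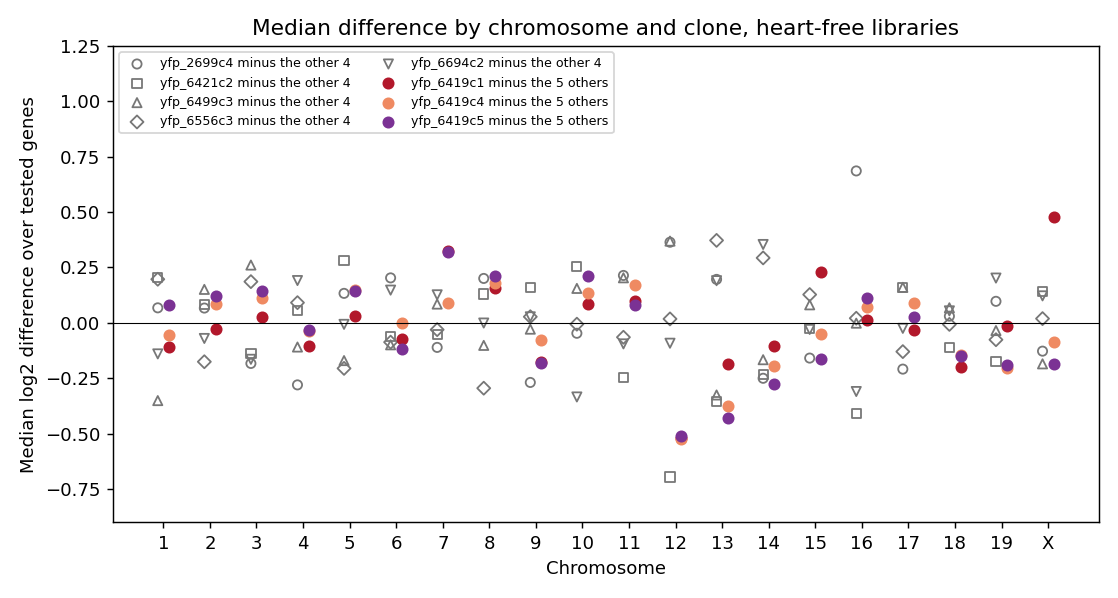
Median log2 difference over the tested genes of each chromosome (vertical axis, chromosomes along the horizontal axis) in heart-free libraries, for each clone of line yfp_6419 against the 5 other clones (filled) and for each other clone against the remaining 4 (open). On chromosome 12 the 3 clones lie between -0.52 and -0.51 with yfp_6421c2 at -0.70. On chromosome X yfp_6419c1 is highest, at 0.48, with yfp_6421c2 at 0.14 and yfp_6694c2 at 0.12.

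Of 31 pathway lists, 5 had a called member and 26 had none, and the medians of 25 lists lay within 0.5 of 0. Of 20 mesenchymal genes tested, 1 passed, 3 were above every other clone and the median was 0.88. Over all genes 0.321% passed, 6.11% were above every other clone and the median was -0.03. Sparc, a collagen-binding matrix protein, had 721, 916 and 569.5 CPM in the line and 135, 283, 130.1, 163 and 195 CPM in the others (log2 2.02 ± 0.28, adjusted p 0.0326). Fn1, fibronectin, had 6995, 8660.0 and 5256 CPM, which overlapped the 1472 to 7146 CPM of the others (adjusted p 0.391). Of 26 collagen and matrix genes, 1 passed (0.321% of all genes), 5 were above every other clone (6.11% of all genes) and the median was 0.49. Col5a1, a fibril-regulating collagen, had 246, 846 and 288 against 52.0, 85.6, 63.8, 80.5 and 96.6 CPM, highest in yfp_6419c4 (log2 2.60 ± 0.41, adjusted p 0.0475). Over all libraries neither Sparc (0.78 ± 0.39, adjusted p 0.652) nor Col5a1 (1.54 ± 0.42, adjusted p 0.381) passed. T cell high clones overlapped the line in both, with 36.4 to 2011 CPM of Sparc and 43.2 to 636 CPM of Col5a1. Lama5, a laminin of epithelial basement membrane, overlapped the others (1138, 963 and 956 against 700.3 to 1123 CPM, adjusted p 0.894).

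Markers of fibroblasts, a cell type that a sort for tumour cells could let through, are given beside these genes. The 8 fibroblast genes summed to 992 to 6203 CPM in the line and 222 to 1265 CPM in the others. Of the 8, 2 were above every other clone, Pdgfrb and Lum, beside 6.11% of all genes. All 8 had a positive difference and 8 of 8 were higher at an unadjusted p under 0.05, beside 7.44% of all genes, with a median of 2.44. Col3a1 and Col1a1, the collagens of loose connective tissue, had 230.2, 3166 and 1227 and 481, 1982 and 986 CPM in yfp_6419c1, yfp_6419c4 and yfp_6419c5, against 65.6 to 392 and 94.1 to 488 CPM. The markers were highest in yfp_6419c4, as was Col5a1, and as was Sparc by a smaller margin. None of the 8 markers passed the adjusted test, and none was at 0 in the line. The part of fibroblast RNA in the values of Sparc, Col5a1, Tnn and the other matrix genes called, such as Col16a1, Sulf1 and Antxr1, was not tested. In these sorted bulk samples, a larger number of cells of a type and more RNA per cell cannot be told apart. Antxr1 and Sulf1 were chosen after their values were seen. Antxr1, a collagen-binding receptor, had 128, 122 and 118 CPM against 21.8 to 49.5 CPM (log2 1.91 ± 0.26, adjusted p 0.0317), nearly equal in the 3 clones. Sulf1, which removes sulfate from heparan sulfate chains, had 81.5, 108 and 109 against 5.07 to 17.0 CPM (log2 3.09 ± 0.43, adjusted p 0.0326). Over all libraries the differences were 1.31 ± 0.24 for Antxr1 (adjusted p 0.115) and 1.41 ± 0.53 for Sulf1 (adjusted p 0.599). T cell high clones had 5.52 to 75.3 CPM of Antxr1, below the line, and 8.59 to 110 CPM of Sulf1, which overlapped it.

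In the Wnt pathway, which renews gut epithelium and drives its own feedback inhibitors, 2 of 22 tested genes passed (0.321% of all genes). Above every other clone were 6 (6.11% of all genes), below was 1, Apc (5.43% of all genes), and the median was 0.30. A positive difference was found in 13 of the 22, beside 7525 of all 15897 genes. Besides Dkk3, the gene that passed was Notum, a secreted enzyme that inactivates Wnt proteins. It stood at only 0.327, 0.780 and 0.590 CPM in the line and at most 0.0618 CPM elsewhere (log2 3.99 ± 0.61, adjusted p 0.0427). Notum had 63 counts in the line and 7 in the other clones, so it met the filter on low counts through the line. Its difference thus helped to select it for the test, and nothing is concluded from the count of calls. Over all libraries Notum overlapped, at 0.794 to 2.23 against 0.152 to 2.87 CPM (log2 0.48 ± 0.75, adjusted p 0.929). The next genes, down to Wisp1, were chosen after their values were seen. Axin2, a feedback inhibitor and common readout of the pathway, had 23.042, 5.26 and 9.03 against 0.0563 to 2.38 CPM. Wnt4 had 109.7, 33.3 and 64.9 against 0.478 to 14.3 CPM. In both, yfp_6419c1 was highest and the groups did not overlap, and neither passed the test (adjusted p 0.141 and 0.169). The ligands Wnt10a and Wnt7b were placed likewise. Fzd1, a Wnt receptor outside the list, passed with 130.3, 145 and 141 against 27.4 to 60.5 CPM (log2 1.66 ± 0.24, adjusted p 0.0344). Wisp1, known as a Wnt-induced secreted protein, had 44.1, 55.1 and 18.002 against 2.15 to 7.63 CPM (log2 3.25 ± 0.50, adjusted p 0.0437). Over all libraries Fzd1 had a difference of 1.03 ± 0.30 (adjusted p 0.430) and Wisp1 of 2.05 ± 0.44 (adjusted p 0.193).

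Genes of cholesterol and fatty acid synthesis had mostly negative differences: 0 of 26 passed, 6 were below every other clone (5.43% of all genes) and 1 was positive, with a median of -0.55. Of all 15897 genes, 7525 were positive. Hmgcs1 and Myc were chosen after their values were seen. Hmgcs1, an early step of cholesterol synthesis, had 117, 123 and 106 CPM in the line against 137 to 277 CPM in the others. The line was below all other clones, without passing the test (adjusted p 0.198). The most abundant members, Scd2 and Fasn, overlapped (778, 786 and 797 against 629 to 1533 CPM, and 366, 424 and 255 against 285 to 770.2 CPM). Of 27 genes of MYC and ribosome biogenesis, 0 passed and 4 were below every other clone (5.43% of all genes), with a median of -0.42. Myc itself had 101, 116 and 96.2 against 576, 202, 139, 148 and 146 CPM (adjusted p 0.320). Its spread among the other clones came from one high clone, while the line was below all 5.

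Matrix protease genes gave 1 call of 23 (0.321% of all genes), with 4 above every other clone (6.11% of all genes) and a median of 0.24. Mmp7, a protease made by gut and pancreatic epithelium, was at 3.30, 1.13 and 2.45 CPM in the line and at most 0.0309 CPM in the others (adjusted p 0.0218). With 249 counts in the line and 2 in the other clones, Mmp7 met the filter on low counts through the line. Nothing is therefore concluded from the count of calls in this list. Over all libraries the groups overlapped (log2 1.38 ± 1.0, adjusted p 0.767). In T cell high clones its range was 0.0654 to 27.1 CPM, so that some of these clones were far above the line. Timp3, Tff1 and Cyr61 were chosen after their values were seen. Timp3, an inhibitor of such proteases, had 68.6, 108 and 127 against 2.55 to 18.6 CPM without passing (adjusted p 0.0839). Of 25 duct and gastrointestinal secretory genes, 0 passed, 3 were above (6.11% of all genes) and 1 was below every other clone (5.43%). Spp1, osteopontin, had 19776, 7836 and 8068 against 3383 to 7670.5 CPM, and Tff1, a trefoil peptide of stomach mucus, had 3.22, 1.16 and 10.2 against 20.7 to 250.2 CPM (adjusted p 0.203 and 0.166). Of 16 YAP and TEAD target genes, 0 passed, 3 were above (6.11% of all genes) and 2 below every other clone (5.43%). Ctgf had 566, 395 and 569.6 against 51.4 to 300.4 CPM and Cyr61 324, 386 and 298 against 52.2 to 189 CPM (adjusted p 0.200 and 0.172). Of 21 pancreatic and foregut transcription factors 0 passed, with Hnf4g above and Klf4 below every other clone. Hnf4a had 302, 258 and 307 against 271 to 377 CPM. Of 26 epithelial adhesion genes 0 passed, with Tjp1 and Cdh3 above every other clone. Cdh1, E-cadherin, had 1201, 799 and 1148 against 487 to 1126 CPM. Over all genes, 0.321% passed as higher and 0.0189% as lower. In lists of this size, 0 calls are thus near that share.

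Further called genes are named after their values were seen. Crtam, a cell surface receptor of activated T and NK cells, had 7.14, 8.45 and 7.53 CPM in the line and 0, 0.0294, 0, 0.0927 and 0.0603 CPM in the others (log2 7.77 ± 0.90, adjusted p 0.0223). It passed in all 3 comparisons, with 5.46 ± 0.66 over all libraries and 8.01 ± 0.90 against T cell high clones. The 10 T and NK cell markers together summed to 0.596 to 2.54 CPM in the line and 0.807 to 5.32 CPM in the others, and Cd8a was at 0 in the line. Wt1, a zinc finger factor of kidney, gonad and mesothelium, had 68.6, 4.91 and 14.3 against 0.267, 0.0294, 0.173, 0.0927 and 0.0905 CPM (log2 7.69 ± 0.97, adjusted p 0.0236). T cell high clones had at most 0.328 CPM. In heart-bearing libraries, however, Wt1 was present in other clones too, at up to 49.1 CPM. Ptger3, a prostaglandin E2 receptor, had 56.4, 6.41 and 25.4 against 0 to 0.371 CPM, and Olfm4 46.4, 2.11 and 12.8 against 0 to 0.155 CPM (adjusted p 0.0344 and 0.0326). Both were highest in yfp_6419c1 and lowest in yfp_6419c4, yet in each above all other T cell low clones with heart-free libraries. T cell high clones had 0.0700 to 2.56 CPM of Ptger3, below the line, and 0.105 to 22.1 CPM of Olfm4, which overlapped it. Socs2, an inhibitor of growth hormone signalling, had 221, 145 and 201 against 27.1 to 75.5 CPM (log2 2.18 ± 0.33, adjusted p 0.0413). Over all libraries none of these genes but Crtam passed. The differences were 1.17 ± 1.34 for Wt1 (adjusted p 0.887), 4.0 ± 0.70 for Ptger3 (adjusted p 0.103), 5.10 ± 0.99 for Olfm4 (adjusted p 0.138) and 1.66 ± 0.27 for Socs2 (adjusted p 0.0902).

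The clones of the line differed from each other, and yfp_6419c1 differed most. Among 10846 genes whose mean reached 5 CPM in the line, 2.55% differed over 4-fold (on the CPM plus 1 scale) between yfp_6419c1 and yfp_6419c4, 1.72% between yfp_6419c1 and yfp_6419c5, and 0.452% between yfp_6419c4 and yfp_6419c5. Rhox5 stood at 4.96, 412 and 379 CPM in the 3 clones and at 2.84, 0.205, 0.0988, 1.08 and 0.513 CPM in the others. It was low in yfp_6419c1, although above the others, and among the well expressed genes of yfp_6419c4 and yfp_6419c5. Col10a1, the collagen of growth plate cartilage, had 0.136, 152 and 64.7 CPM, and Nkx2-3, a homeobox gene of gut and spleen, 0.764, 56.6 and 55.8 CPM. These were high in the same pair of clones and low in yfp_6419c1, although Nkx2-3 reached 15.7 CPM in the other lines, and they were named after their values were seen. With 1 heart-free library per clone, differences between clones have no replicate check and no test.

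In the HoxA and HoxB clusters, which pattern the body axis, 16 of 20 genes were higher in yfp_6419c4 and yfp_6419c5 than in every other clone and in yfp_6419c1. This grouping of clones was chosen after the values were seen, and its share over all genes was not counted. Hoxb2 and Hoxb9 were at most 0.126 CPM in every clone, Hoxb1 had 0 counts and Hoxb13 had 0 counts in the line. Hoxa10 had 0.354, 33.9 and 34.6 CPM in yfp_6419c1, yfp_6419c4 and yfp_6419c5 and 0, 0.0294, 0.0741, 0 and 0.0905 CPM in the others (adjusted p 0.0521). Hoxa3 had 0.464, 11.4 and 8.94 against 0.141, 0.147, 0.0494, 0.0927 and 0.0302 CPM and was the only HOX gene that passed (log2 6.16 ± 0.96, adjusted p 0.0475), although yfp_6419c1 was close to the other lines. Over all libraries its groups overlapped (log2 3.97 ± 0.78, adjusted p 0.138). Of 10 HOX genes tested, 2 were above every other clone (6.11% of all genes), and the median was 2.43. These 2, Hoxa3 and Hoxa10, had 21 and 7 counts in the other clones, so they met the filter on low counts through the line. The difference thus helped to select the genes tested, and nothing is concluded from this count and median. The rest of the HoxA genes did not pass the filter on low counts and are given without a test. Among these, Hoxa9 had 0.136, 14.1 and 11.5 CPM, Hoxa5 0.0273, 23.002 and 9.08 CPM and Hoxa13 0.136, 3.49 and 10.3 CPM in the 3 clones. In the HoxB cluster, Hoxb6 had 0.573, 17.961 and 14.8 CPM in the 3 clones and at most 0.958 CPM in the others (adjusted p 0.152). The HoxC and HoxD genes that were tested stayed under 1 CPM in all clones.

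**Figure D5:**
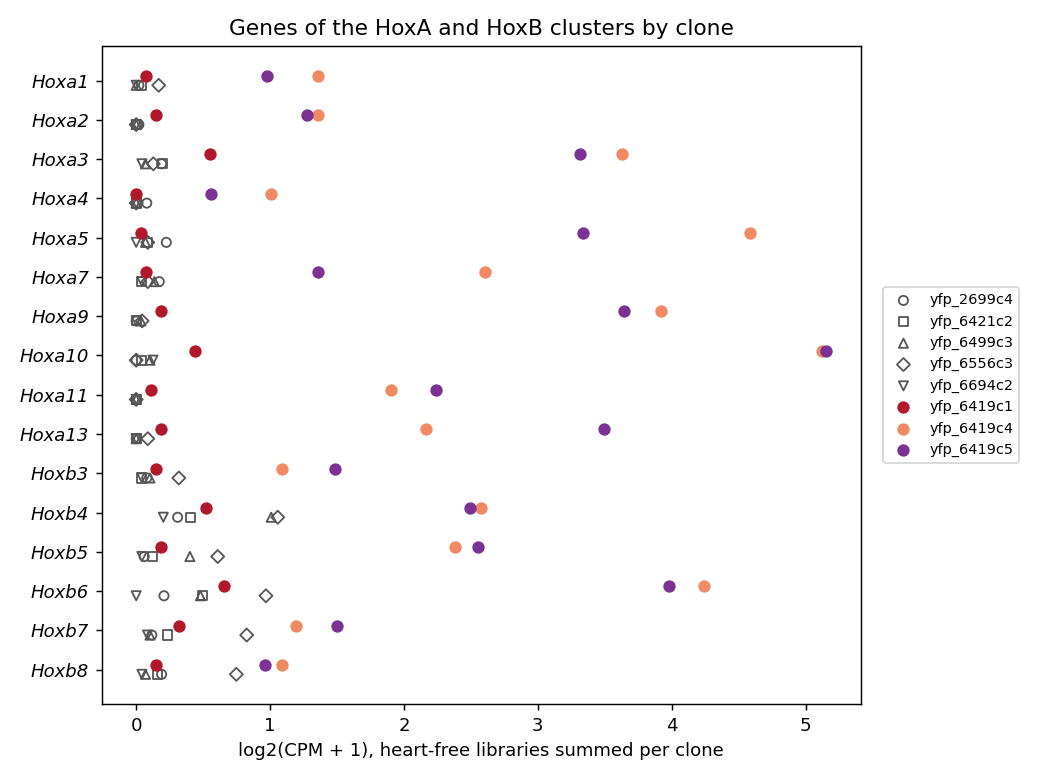
Levels of the 16 genes of the HoxA and HoxB clusters that were higher in yfp_6419c4 and yfp_6419c5 than elsewhere, chosen after their values were seen, in heart-free libraries summed per clone, as log2 of CPM plus 1 (horizontal axis). The clones yfp_6419c4 and yfp_6419c5 lie to the right in each gene, with Hoxa10 at 33.9 and 34.6 CPM, and yfp_6419c1 lies with or close to the 5 other clones.

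Clone yfp_6419c1 was high in further genes, also named after their values were seen. Cdh16, a cadherin of kidney tubules, had 103, 0.428 and 0.384 CPM, and Pax2, a kidney transcription factor, 47.8, 0.201 and 0.266 CPM in yfp_6419c1, yfp_6419c4 and yfp_6419c5. Sall1, a further kidney factor, had 32.9, 0.302 and 0.384 CPM. All of these were high in yfp_6419c1 alone within the line, but other clones had them too. Sall1 was at 22.9 CPM in yfp_2699c4 and 18.7 CPM in yfp_6694c2, Pax2 at 14.1 CPM in yfp_6499c3, and Cdh16 at 11.3 CPM in yfp_6694c2 and 6.91 CPM in yfp_6499c3. Hp, haptoglobin, had 229, 3.72 and 6.94 CPM and Fgb, a fibrinogen chain, 80.7, 0.352 and 1.65 CPM. Both are liver proteins, and a liver sum of 6 genes (Ahsg, Alb, Cps1, Fga, Fgb and Mat1a) came to 241 CPM in this heart-free library, against 1.31 and 10.3 CPM in those of yfp_6419c4 and yfp_6419c5. Its heart sum was 0.0259 CPM. In yfp_6419c5, the stomach genes Gkn1 (1.28, 6.89 and 48.6 CPM) and Gkn2 (0.518, 3.85 and 19.9 CPM) and the regenerating protein Reg3b (8.26, 10.4 and 62.9 CPM) were highest within the line. Clone yfp_6499c3 was above it for Gkn1 and Gkn2, at 51.7 and 43.7 CPM. In yfp_6419c4, Has2, which makes hyaluronan, had 4.55, 45.8 and 4.28 CPM and Dll4, a Notch ligand, 5.43, 44.5 and 1.68 CPM. Has2 and Dll4 were thus each high in one clone of the line, at levels that other clones also reached (0.323 to 35.6 and 1.32 to 70.2 CPM).

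Against the 6 T cell high clones in heart-free libraries, which were 8 libraries, 11 of 16324 genes were higher in line yfp_6419 (0.0674%) and 11 were lower (0.0674%), and 735 (4.5%) and 754 (4.62%) were above or below every T cell high clone. At an unadjusted p under 0.05, 1142 were higher (7%) and 1623 lower (9.94%). Leaving out a clone gave between 1 and 47 higher and 2 and 35 lower calls; the fewest higher were without yfp_6499c4, with 2 lower, and the most were without yfp_2838c3. Without yfp_6419c4 there were 2 of each. This comparison shares the libraries of line yfp_6419 with the one above, so an overlap of calls is no separate support. Of the 54 genes called against the other T cell low clones, 21 were also apart from every T cell high clone. Of the same 54, 4 were called here. Crtam, Hsd3b1, Stag2, Xiap and Ogfod2 were among the calls. Col11a1, a fibrillar collagen of cartilage, was also higher, with 41.3 to 79.7 CPM in the line and 0.245 to 4.39 CPM in T cell high clones (log2 5.54 ± 0.74, adjusted p 0.0350). Zfpm2, a cofactor of GATA factors, had 16.5 to 24.6 against 0.986 to 4.03 CPM (log2 3.07 ± 0.39, adjusted p 0.0326). Mical1, which oxidises actin filaments, was lower, at 0.758 to 3.52 against 22.5 to 69.5 CPM (log2 -4.10 ± 0.59, adjusted p 0.0443). Pla2g4a, the phospholipase that releases arachidonic acid, was lower at 32.2 to 44.7 against 66.8 to 98.7 CPM (log2 -1.13 ± 0.17, adjusted p 0.0468). Each of these had all 3 clones outside the range of the T cell high clones, and the difference between this comparison and the one with low clones was not tested.

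Over all libraries, with 6 other low clones, 8 of 18785 genes were higher (0.0426%) and 0 were lower (0%), beside 444 (2.36%) above and 408 (2.17%) below every other clone. By edgeR at an unadjusted p under 0.05, 726 genes were higher (3.86%) and 754 lower (4.01%), and DESeq2 called 47 lower. Without yfp_6419c1 there were 36 higher calls, without yfp_2699c4, yfp_6499c3 or yfp_6556c3 there were 0, and without any other clone between 1 and 4. Besides Hsd3b1 and Crtam, the calls were Gpr128, Cyp2d34, Clrn3 and 3 unnamed transcripts. Clrn3, a small membrane protein, had 1.86 to 7.83 CPM over the 3 clones of the line and 0.109 to 0.402 CPM in the 6 others (log2 4.07 ± 0.50, adjusted p 0.0423). Gpr128 had 1.13 to 14.0 against 0.0437 to 0.181 CPM (log2 5.80 ± 0.73, adjusted p 0.0423). In heart-free libraries, T cell high clones had 0.0841 to 13.1 CPM of Gpr128, which overlapped the line. Of 53 genes called in heart-free libraries and measured in heart-bearing ones, 49 had the same sign there. The share of all genes that kept their sign was not counted, so nothing is concluded from the 49. In heart-bearing libraries 0 of 18288 genes passed in either direction (0%). By edgeR at an unadjusted p under 0.05, 231 were higher there (1.26%) and 394 lower (2.15%), DESeq2 was not run on these libraries, and 1195 (6.53%) were above and 1131 (6.18%) below every other clone.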

How the data were processed

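Total RNA of sorted tumour cells was sequenced, and the authors deposited a table of raw counts per gene, made with STAR and featureCounts on mm10 per the submitters' processing notes. The sources used here give neither their versions nor the strand setting. Reads of overlapping, antisense or near-identical genes may be split or shared. The table held 39017 genes, of which 37607 identifiers were found in GENCODE M21, and every column matched a sample. For 162 repeated symbols the entry with the highest total was kept.

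Counts were summed per clone over the libraries of the comparison, genes passed edgeR's filterByExpr, and TMM factors scaled the library sizes. edgeR 4.0.16 (R 4.3.3) fitted a robust quasi-likelihood model, one clone sum as one replicate, with Benjamini-Hochberg adjustment over all genes tested and a threshold of 0.05. Levels per clone are CPM on the TMM scale, and levels per library and the sums of marker genes are CPM of the library total. Differences are log2 fold changes with their standard errors. Libraries whose Myh6, Myh7, Myl2 and Mb sum reached 10 CPM were called heart-bearing, and the comparison was run without them, with all libraries, and with heart-bearing libraries alone. The comparison with T cell high clones was fitted apart.

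The rule for naming genes took 12 per direction by rising p, out of the called genes whose mean reached 5 CPM, and passed over predicted genes and pseudogenes. Where fewer than 5 passed, the 5 with the smallest p were taken. From each pathway list the called members were taken, at most 4, filled to 2 by level, and from each marker list the 2 with the highest level. The other genes given with values were chosen after their values were seen. The members and the lists (31 pathway, 14 marker) were chosen with earlier results of these data known. In counts simulated from these clones, 15546 genes were tested, and 64% of genes changed by 2 on the log2 scale and 7% of those changed by 1 were recovered. Of the calls made in the simulated counts, 1.39% were false. That share depends on how the counts were simulated, and the share of false calls among the real ones was not measured. The real clones of yfp_6419 share a line, and the count of real calls rested on single clones. Alternatives used upper-quartile factors, DESeq2 1.42.0, limma 3.58.1 with voom, other filters and thresholds, libraries in place of clone sums, and each clone left out in turn.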

Additional observations from a re-analysis of the deposited data

Results flagged for a closer look

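For the 17 genes in the plot of named genes, the clones compared with line yfp_6419 were searched for a clone that lay far from the rest of its group (the gap to its neighbour as a share of the whole range, against Dixon's 95% critical value). Of 51 groups looked at, 9 held such a clone. Chance flags about 1 in 20 groups where values are normally distributed and the groups are independent. The CPM used here were not transformed and the groups share genes and clones, so these shares cannot be compared.

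Among the 6 other T cell low clones over all libraries, yfp_6422c1, whose only library was heart-bearing, was the highest in 3 genes that mark line yfp_6419. It had 86.7 CPM of Tm4sf5, with the next clone at 3.16 CPM. It had 15.1 CPM of Slc1a2, with the next at 4.81 CPM, and 3.73 CPM of Igf2bp3, with the next at 1.06 CPM. For Bcl6, yfp_6694c2 was highest at 45.6 CPM, ahead of 32.6 CPM. For Ccl8, yfp_6499c3 was highest at 119 CPM, ahead of 27.8 CPM.

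Among the 6 T cell high clones in heart-free libraries, yfp_6555c3 had 15.0 CPM of Tnn, with the next clone at 1.40 CPM, and 35.7 CPM of Dkk3, with the next at 10.01 CPM. Those levels reach or exceed the ones in line yfp_6419. Rpl22l1 stood at 300.2 CPM in yfp_6499c4, ahead of 139 CPM. Hsd3b1 stood at 0.0701 CPM in yfp_6556c4, ahead of 0.0187 CPM, and both are traces beside line yfp_6419.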

How the results depend on the processing

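Counts of calls are given as higher and lower in line yfp_6419. Against the other T cell low clones in heart-free libraries (51 and 3), they were 1 and 0 at an adjusted p under 0.01, 490 and 455 by DESeq2, 85 and 4 by limma with voom, 64 and 7 with no filter on low counts, 24 and 4 at a mean of at least 5 CPM, 84 and 6 with each library as a replicate, and 0 and 0 with tumour number 2 only. Leaving out each clone in turn gave 0 to 91 and 0 to 22. Over all libraries (8 and 0), they were 0 and 0 at an adjusted p under 0.01, 213 and 47 by DESeq2, 0 and 0 at a mean of at least 5 CPM, and 0 to 36 and 0 to 0 with a clone left out. With heart-bearing libraries only they were 0 and 0. Each library as a replicate with a heart covariate gave 60 and 17, and limma with voom, the clone as a random block and a heart covariate gave 0 and 0. With tumour number as a replicate block, 5 and 0 were called. The numbers share no stated source, and the deviations of libraries 1 and 2 with the same number correlated at -0.565 to 0.865 over 7 clones, so they were not taken to pair the samples. Against T cell high clones (11 and 11), the counts were 1 and 2 at an adjusted p under 0.01, 404 and 750 by DESeq2, 21 and 9 by limma with voom, 5 and 9 at a mean of at least 5 CPM, and 1 to 47 and 2 to 35 with a clone left out. The 20 called genes named by rule kept their direction in 257 of 259 values. The exceptions were in heart-bearing libraries only, Tm4sf5 at -0.53 and Ogfod2 at 0.24 on the log2 scale. All other settings reused, in whole or in part, the heart-free counts that selected these genes. Their direction could hardly change there, so those values are no separate support. DESeq2 was the setting with the most calls in each comparison, and the cause of these changes was not tested. The scalings moved the median of all genes little (-0.0261 by TMM and -0.0548 by upper quartile). Depth limits the genes at or near 0 counts in the other clones, whose fitted fold changes are not bounds.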
